A study of Homo sapiens with 6 samples.

Results

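The mRNAs of gap junction connexins and of pannexin 1 were followed in HaCaT cells, a spontaneously immortalized human keratinocyte line. The members were *GJA1* (connexin 43), *GJB2* (connexin 26) and *PANX1* (pannexin 1), taken from the deposited gene table by symbol. Of the 3 members, *GJA1* and *PANX1* were analysed, out of 12499 genes in the table, and both passed the filter on low counts. *GJB2* was not analysed here. The cells were infected for 48 hours with lentivirus carrying the human *ATF7* coding sequence (LV-*ATF7*) or with control lentivirus (LV-NC), and all of them were then kept in high glucose for 24 hours. There were 3 libraries per group and 6 in all. The vector was pLVX-IRES-Puro, so expression was not restricted to a cell type, and no library without virus or in normal glucose was part of the comparison. ATF7 is a transcription factor of the ATF/CREB family that binds the cAMP response element.

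Connexins assemble into hexameric hemichannels that dock between neighboring cells as gap junctions and pass ions and small metabolites. Connexin 43 is the best known connexin of the basal epidermis, where its amount and phosphorylation change when skin is wounded. Pannexin 1 has a similar fold but does not normally form junctions between cells. It works as a large channel in the plasma membrane that releases ATP, which then acts on purinergic receptors of the same or neighboring cells and is broken down by ectonucleotidases.

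Total counts per library ran from 16686472 to 20562768. The *ATF7* mRNA went against the labels, since it stood at 50.6, 46.4 and 52.2 CPM (counts scaled to a common library size) in the LV-NC libraries and at 21.9, 25.7 and 28.0 CPM in the LV-*ATF7* libraries (log2 fold change -0.98, SE 0.120, adjusted p = 1.89e-04 by edgeR's quasi-likelihood test). Groups are therefore named by their labels, and every direction is that of libraries labeled LV-*ATF7* relative to libraries labeled LV-NC. Of the *ATF7* exon bases, 18.2% are shared with other genes on the same strand and 27.1% lie opposite other genes. How reads from those parts were counted is not given in the sources used here. Replicate 1 of LV-NC stood apart, with a chi-square per gene of 74.6 and 66.9 against the other two LV-NC libraries, which differed from each other by 3.69. All 7 basal keratinocyte markers were measured, and their summed level was 701.4 to 980.4 CPM in LV-NC and 5550 to 6127 CPM in LV-*ATF7*, with 6 of 7 higher and *KRT14* lower. Of 9 suprabasal markers, 4 were measured (118.5 to 126.7 against 105.1 to 105.4 CPM). Of these, *FLG* (log2 fold change 3.46) and *TGM1* (1.39) were higher and *IVL* (-2.11) and *KRT10* (-0.55) lower, and *KRT1*, *LORICRIN*, *DSG1*, *SPRR1A* and *SPRR1B* had no row. The 4 simple epithelial keratins summed to 990.1 to 2485 against 6961 to 7899 CPM, and the endothelial markers *VWF* and *CDH5*, the 2 measured of 4, to 1.12 to 5.50 against 84.6 to 89.9 CPM. The 3 wound-activated keratins measured of 5 gave 24.5 to 112.8 against 33.2 to 36.4 CPM. Of 8 fibroblast markers, 3 had a row and 2 passed the filter on low counts. These 2 summed to 33.1 to 42.7 against 17.3 to 21.7 CPM. *COL1A1* was lower (log2 fold change -1.13), while *DCN* was at 2.24 and did not pass the test. The 2 melanocyte markers of 6 gave 17.5 to 24.8 against 12.2 to 13 CPM (*PMEL* higher by 1.13 and *MITF* at -1.21 on the log2 scale). *CD14*, the 1 leukocyte marker measured of 5, gave 1.51 to 1.73 against 7.09 to 9.57 CPM. The groups did not overlap in these sums except for the wound-activated keratins, none of which passed the test. Of all genes tested, 34.7% passed upward and 32.9% downward (adjusted p under 0.05, edgeR), and 72.7% had groups that did not overlap. The part of these marker levels in the results was not tested. In bulk RNA, fewer cells of a type and less RNA per cell cannot be told apart.

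Because ATF7 binds the CRE and AP-1 factors have been reported at the *GJA1* promoter, the sequence before the start of both genes was searched. RefSeq promoter windows (GRCh38.p14) were found for both members, and the 250 bases before the RefSeq start were searched on both strands. The full CRE, searched as TGACGTCA, was held by 1.65% of 35116 promoter windows of the same length. The partial CRE, searched as TGACG and contained in every full one, was held by 21.2% of them. The AP-1 motif was searched as TGANTCA and the share with it was 6.57%. The GC box was searched as GGGCGG, with a share of 42.6%, and the TATA box as TATAAA, with a share of 10.7%. These sequences come from the stretches searched next to the start of each gene, and matches are in capitals. For *GJA1* only parts of the 250 bases searched are printed, and for *PANX1* all of them. The first of the sequences holds no match.
*GJA1* upstream of the GENCODE start, chr6:121435396-121435576, plus strand: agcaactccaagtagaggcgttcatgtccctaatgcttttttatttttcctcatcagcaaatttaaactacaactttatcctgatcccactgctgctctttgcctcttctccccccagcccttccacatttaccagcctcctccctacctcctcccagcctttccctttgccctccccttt
*GJA1* around the AP-1 letters, chr6:121435590-121435613, plus strand: ctcccagtTGAGTCAgtggcttga
*PANX1* upstream of the RefSeq start, chr11:94128591-94128840, plus strand: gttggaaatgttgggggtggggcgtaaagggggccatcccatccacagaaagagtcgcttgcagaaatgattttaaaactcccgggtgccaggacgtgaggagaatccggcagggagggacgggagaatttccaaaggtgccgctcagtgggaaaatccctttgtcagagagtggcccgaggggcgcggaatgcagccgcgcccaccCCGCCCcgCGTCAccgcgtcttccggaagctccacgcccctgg

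The *GJA1* window held 1 match, TGAGTCA at positions -48 to -42 before the RefSeq start. The GENCODE start lies further upstream, so this match is inside the gene as GENCODE annotates it. The *PANX1* window held the partial CRE letters on the minus strand (CGTCA as printed, positions -35 to -31) and, beside them, the GC box letters on the minus strand (CCGCCC, positions -43 to -38), with no overlap between the matches. Neither window held the full CRE. The 2 windows also differed in composition, with 48.0% G and C and 1 CpG pair in *GJA1* against 62.0% and 19 pairs in *PANX1*, where the medians over all windows were 58.0% and 11 pairs. A match describes the letters only and does not show binding.

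*GJA1* rose and *PANX1* fell in the libraries labeled LV-*ATF7*. *GJA1* lies on chromosome 6 at 121435577 to 121449727, plus strand (GENCODE release 29, GRCh38), with 4 exon blocks of 3413 bases in all, of which 1146 are coding. Its counts were 77, 53 and 62 in LV-NC and 132, 196 and 99 in LV-*ATF7*, or 4.12, 2.78 and 3.59 CPM against 7.37, 9.99 and 5.47 CPM after TMM scaling. All LV-*ATF7* libraries lay above all LV-NC libraries, with replicate 2 the highest of the former. The means were 3.50 ± 0.677 and 7.61 ± 2.27 CPM (SD, n = 3), a 2.18-fold increase (log2 fold change 1.12, SE 0.263, adjusted p = 0.00568, edgeR). *GJA1* was a scarce transcript. Its counting error alone was 12.5% of the mean in LV-NC and 8.38% in LV-*ATF7*, against a coefficient of variation (CV) between libraries of 19.4% and 29.8%. Per kilobase of exon, its level exceeded that of 20.5% of the genes tested. The processed pseudogene *GJA1P1* was 96.8% identical over 1146 bases of the 3152-base *GJA1* transcript, so reads of both could have been shared, and how such reads were counted is not given in the sources used here.

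*PANX1* lies on chromosome 11 at 94128928 to 94181972, plus strand, with 5 exon blocks of 2769 bases in all, of which 1278 are coding. Its counts were 2403, 2709 and 2502 in LV-NC and 1358, 1499 and 1359 in LV-*ATF7*, that is 128.7, 142.0 and 144.8 CPM against 75.8, 76.4 and 75.2 CPM. The LV-*ATF7* libraries were nearly level with each other, and the groups did not overlap. The means were 138.5 ± 8.64 and 75.8 ± 0.629 CPM (SD, n = 3), 1.83-fold lower (log2 fold change -0.87, SE 0.0875, adjusted p = 6.84e-05, edgeR). In contrast to *GJA1*, *PANX1* was abundant, with a level per kilobase above 91.1% of the genes tested, and the counting error was 1.99% of the mean in LV-NC and 2.67% in LV-*ATF7*. No similar transcript was found for it.

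**Figure D1:**
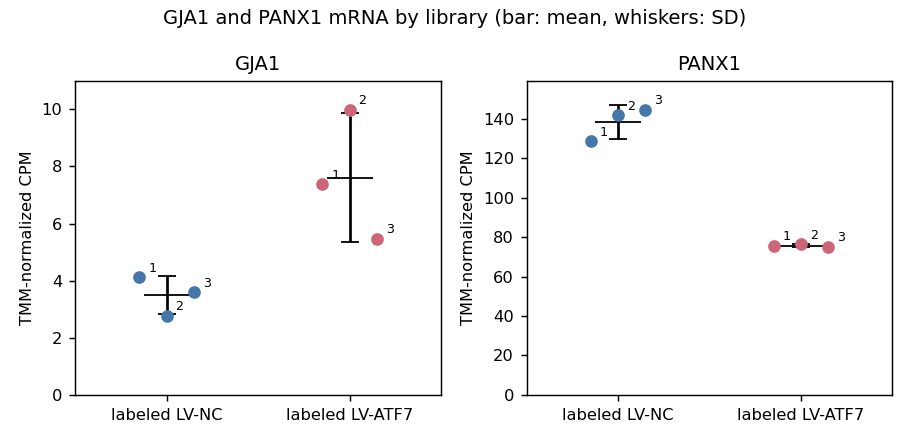
TMM-normalized CPM (vertical axes, linear, from 0) of *GJA1* and *PANX1* in each library, numbered by replicate, with the mean as a bar and the SD as whiskers (n = 3 per group). The *GJA1* libraries labeled LV-*ATF7* sit between 5.47 and 9.99 CPM, all above LV-NC, and those of *PANX1* between 75.2 and 76.4 CPM, all below LV-NC.

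Changes of these sizes were common in this comparison. Of the 12462 genes tested, 67.6% passed the threshold of adjusted p under 0.05 (34.7% upward and 32.9% downward), and 72.7% had groups that did not overlap. Shares of all genes given below are shares of these tested genes. The deposited table held no gene with a summed count under 51, so they do not describe scarcer transcripts. The absolute change of *GJA1* was larger than that of 71.3% of genes and the change of *PANX1* larger than that of 61.2%. Without LV-NC replicate 1, the log2 fold change was 1.25 for *GJA1* (adjusted p = 2.29e-05) and -0.94 for *PANX1* (adjusted p = 1.57e-11). Both members kept their direction and their call in all 13 alternative analyses, from 0.88 to 1.44 for *GJA1* and from -1.03 to -0.85 for *PANX1*. The labels do not say that replicates were separate cultures, so the p-values measure the spread between these libraries, which may be technical.

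The balance of the 2 transcripts was compared within each library, which does not depend on scaling. *PANX1* counts were 31.2, 51.1 and 40.4 times those of *GJA1* in the LV-NC libraries and 10.3, 7.65 and 13.7 times in the LV-*ATF7* libraries. The ratio was lower in every LV-*ATF7* library. The log2 ratio was 5.33 ± 0.356 in LV-NC and 3.36 ± 0.422 in LV-*ATF7* (SD, n = 3), a difference of -1.97 with an exact two-sided permutation p of 0.10, the smallest that 3 against 3 libraries can give. Counts are not divided by transcript length here.

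Of the other 21 connexins and pannexins, 8 were measured, and 6 of these 8 passed the test (75.0%, against 67.6% of all genes), 5 upward and 1 downward. Their median log2 fold change was 0.61, while that of all genes was near 0. The groups of all 8 did not overlap, which held for 72.7% of all genes. Without LV-NC replicate 3, or without LV-*ATF7* replicate 3, 3 of the 8 passed. The remaining 13 were not analysed here.

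Among the beta connexins, *GJB5*, a connexin of the differentiating epidermis, lies on the plus strand of chromosome 1 at 34755047 to 34758512. It had 588, 804 and 744 counts in LV-NC and 852, 854 and 872 in LV-*ATF7*, or 31.5, 42.1 and 43.1 against 47.6, 43.5 and 48.2 CPM. The groups did not overlap, with LV-NC replicate 1 the lowest library, but the change did not pass the test (38.9 ± 6.44 against 46.4 ± 2.54 CPM, log2 fold change 0.26, SE 0.136, adjusted p = 0.129). Without LV-NC replicate 1 it was 0.10 (adjusted p = 0.285).

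Among the alpha connexins other than *GJA1*, *GJA3* (connexin 46), known best from lens fibers, was the 1 connexin that fell. It stood at 7.12, 10.1 and 9.55 CPM in LV-NC and at 2.79, 2.29 and 2.60 CPM in LV-*ATF7*, 3.48-fold lower (log2 fold change -1.80, SE 0.200, adjusted p = 1.13e-04, edgeR). The 2 measured alpha connexins thus moved in opposite directions.

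*GJC1* and *GJD3* had low levels. *GJC1* (connexin 45), known from the cardiac conduction system and smooth muscle, had 13.6 ± 2.92 against 19.1 ± 0.457 CPM (log2 fold change 0.49, SE 0.168, adjusted p = 0.0312). That call was lost with library size scaling (0.32, adjusted p = 0.156) and on leaving out any library but LV-NC replicate 1. Without the others the adjusted p was 0.142 (LV-NC replicate 2), 0.131 (LV-NC replicate 3), 0.0751, 0.0935 and 0.0769 (LV-*ATF7* replicates 1, 2 and 3). *GJD3* had 15, 7 and 5 counts against 43, 56 and 38 (2.31, SE 0.379, adjusted p = 8.86e-04), but 82.8% of its exon bases lie opposite *AC080112.1*, so the 2 genes could not be told apart without strand.

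Of the pannexins, *PANX2*, which is known mainly from neurons, had the opposite direction to *PANX1*. It stood at 4.02, 6.71 and 4.92 CPM in LV-NC and at 8.04, 8.41 and 9.57 CPM in LV-*ATF7* (log2 fold change 0.73, SE 0.212, adjusted p = 0.0154, edgeR). The call was lost without LV-NC replicate 3 (adjusted p = 0.0535) and without LV-*ATF7* replicate 3 (adjusted p = 0.0640).

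**Figure D2:**
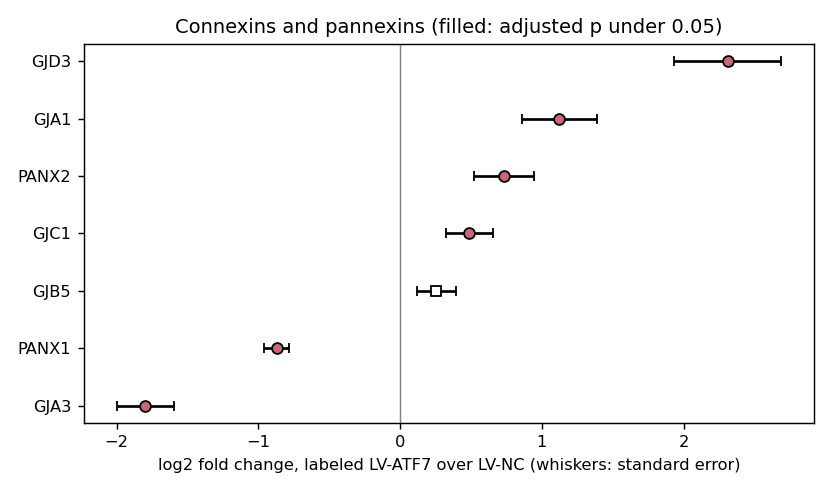
Log2 fold change of libraries labeled LV-*ATF7* over LV-NC (horizontal axis) for 7 connexins and pannexins, with the standard error as whiskers. Filled points passed adjusted p under 0.05 (edgeR), and the open square (*GJB5*) did not. *PANX1* (-0.87) and *GJA3* (-1.80) lie below 0 and the other 5 genes above it.

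Levels of different genes were compared per kilobase of exon. In LV-NC, *PANX1* was the most abundant of the 10 (50.02 ± 3.12 CPM per kilobase), above *GJB5* (28.7 ± 4.75) with no overlap. *GJA3*, *PANX2* and *GJC1* stood at 1.71, 1.68 and 1.57, each overlapping the next in its range. *GJA1* came after them (1.03 ± 0.198) and overlapped *GJD3* (0.55 ± 0.313).

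In LV-*ATF7*, *GJB5* (34.3 ± 1.87 CPM per kilobase) lay above *PANX1* (27.4 ± 0.227), the reverse of their order in LV-NC, and again the 2 genes did not overlap. *PANX2* and *GJD3* stood at 2.80 and 2.77. *GJA1* (2.23 ± 0.665) had a range that overlapped that of *GJC1* (2.21) and reached those of *PANX2* and *GJD3*. *GJA3* (0.49 ± 0.0481) was below all of these.

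The summed level of the 8 measured connexins was 47.1 ± 5.33 CPM per kilobase in LV-NC and 82.4 ± 3.05 in LV-*ATF7*, 1.75-fold higher (exact two-sided permutation p = 0.10, the smallest possible). Within that sum, *GJA1* made up 2.95%, 1.63% and 2.08% in LV-NC and 2.69%, 3.61% and 1.87% in LV-*ATF7*. The groups overlapped, and the difference in share was 0.50 percentage points (2.22 ± 0.668% against 2.72 ± 0.870%, exact p = 0.60). It ranged from 0.0593 points without LV-*ATF7* replicate 2 to 0.929 points without LV-*ATF7* replicate 3, so its size rested on single libraries. The share of *GJB5* went from 60.7 ± 3.45% to 41.6 ± 2.09% and that of *GJA3* from 3.61 ± 0.272% to 0.60 ± 0.0643%, with no overlap between groups in either. These shares leave out *GJB2* and the connexins without a row.

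Genes that carry, anchor and remove connexins went both ways. Of 23 listed, 21 were measured, and 16 passed the test (76.2%, against 67.6% of all genes), 5 upward and 11 downward, with a median log2 fold change of -0.37. The 11 included *TJP1* (ZO-1), which binds the tail of connexin 43 at the edge of the plaque, *DBN1* (drebrin), *MAPRE1* (EB1), which guides microtubules that deliver hemichannels, *CNST*, *CLTC*, *AP2M1*, *DAB2*, *EPS15*, *HGS*, *TSG101* and *SMURF2*. Of the *HGS* exon bases, 23.5% lie opposite other genes. The 3 with the largest change among those that passed were all higher. *NEDD4*, a ubiquitin ligase that acts on connexin 43, rose from 51.8 ± 15.4 to 275.9 ± 40.5 CPM (2.41, SE 0.214). *CAV1*, the caveolin that binds connexins in membrane rafts, rose from 49.9 ± 2.99 to 232.6 ± 12.2 CPM (2.22, SE 0.0943). *DLG1*, a scaffold protein, rose from 95.4 ± 9.04 to 384.2 ± 32.9 CPM (2.01, SE 0.112). *RAB20* and *UBQLN4* were the other two that rose.

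The genes listed as kinases and phosphatase of the connexin 43 tail went both ways, and 7 of 11 passed the test (63.6%, against 67.6% of all genes). Of these 7, 3 were higher (*SRC*, *MAPK3*, *PRKCD*) and 4 lower, among them *PRKCA*, *CDK1* and *PTPN1*. The median of the list was -0.32. Action of these genes on that tail was not tested. With library size scaling 3 passed upward and 7 downward. *MAPK3* (ERK1) rose from 9.90 ± 2.23 to 65.8 ± 2.85 CPM (2.73, SE 0.162), and *PRKCA* fell from 17.1 ± 0.779 to 5.75 ± 0.188 CPM (-1.57, SE 0.1299). *CDK1*, the mitotic kinase, stood at 20.0, 111.5 and 105.9 CPM in LV-NC and at 30.0, 28.1 and 26.9 CPM in LV-*ATF7*. LV-NC replicate 1 lay below all LV-*ATF7* libraries, so the groups overlapped. Its log2 fold change was -1.48 (adjusted p = 0.0362), -1.96 without LV-NC replicate 1, and the call was lost with the replicate block (adjusted p = 0.0778) and without any 1 of the other 5 libraries (adjusted p from 0.0890 to 0.124).

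Of 7 genes listed for the cleavage and opening of pannexin 1, all were measured and 6 passed (85.7%, against 67.6% of all genes), 2 upward (*LYN*, *TRPV4*) and 4 downward, among them *FYN* and *XKR8*, with a median of -0.47. With library size scaling the split was 1 upward and 5 downward. *FYN*, a Src family kinase, had 421, 498 and 405 counts in LV-NC and 22, 23 and 22 in LV-*ATF7*, 19.8-fold lower by CPM (-4.31, SE 0.157). *TRPV4*, a calcium channel whose opening is linked to pannexin 1 ATP release, was at 11.9, 5.61 and 5.67 CPM against 18.2, 16.7 and 17.5 CPM (1.18, SE 0.287). The highest LV-NC library was replicate 1, and the change was 1.61 without it.

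Downstream of released ATP, 11 of 19 purinergic receptors were measured and 10 passed (90.9%, against 67.6% of all genes), 7 upward and 3 downward, with a median of 0.99. Those higher were *P2RX3*, *P2RX4*, *P2RX5*, *P2RY2*, *P2RY6*, *P2RY11* and *ADORA2B*, and those lower were *P2RX2*, *P2RY1* and *ADORA2A*. The 3 largest changes were of scarce ATP-gated channels. *P2RX3* had 1, 2 and 3 counts in LV-NC and 39, 62 and 49 in LV-*ATF7*, a ratio of summed counts per library size of 24.7 (95% exact counting interval 11.1 to 68.5). *P2RX2* had 19, 52 and 34 counts against 1, 1 and 2, a ratio of 26.5 in the other direction (10.1 to 99.2). These intervals cover counting error only. *P2RX5* had 7, 20 and 12 counts against 76, 56 and 83 (2.45, SE 0.370), but 41.6% of its exon bases are shared with the readthrough gene *P2RX5-TAX1BP3*. The shared part on the same strand was 54.2% for *P2RY11* and 56.8% for *ADORA2A* (with *SPECC1L-ADORA2A*), so the calls of these receptors are uncertain too.

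All 4 measured ectonucleotidases of 7 passed the test (100% against 67.6% of all genes), 3 upward and 1 downward, with a median of 0.89. *NT5E* (CD73), which turns AMP into adenosine, rose from 2.80 ± 0.422 to 8.62 ± 0.863 CPM (1.62, SE 0.185), and *ENTPD1* (CD39) was also higher. *ENTPD8* had 14, 11 and 20 counts against 39, 32 and 24 (1.05, adjusted p = 0.0269), and *ENTPD2* had 34, 41 and 50 against 23, 7 and 24 (-1.21, adjusted p = 0.0386). These 2 calls rested on few counts. The *ENTPD2* call was lost without any 1 library other than LV-NC replicate 1 (adjusted p from 0.0570 to 0.1004). The *ENTPD8* call was lost with DESeq2 (0.0530), library size scaling (0.0517) and the replicate block (0.0528), and also on leaving out LV-NC replicate 2 (0.0971) or either of the first 2 replicates of LV-*ATF7* (0.108 and 0.0648).

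Among other large pore and ATP release channels, 6 of 13 were measured and 5 passed (83.3%, against 67.6% of all genes), 3 upward (*LRRC8C*, *LRRC8D*, *CALHM2*) and 2 downward, with a median of 0.15. With library size scaling the split was 1 upward and 2 downward and the median -0.016. *LRRC8A*, the obligatory subunit of volume-regulated anion channels, fell from 448.8 ± 21.6 to 173.7 ± 10.6 CPM (-1.37, SE 0.0935), and *LRRC8B* fell from 33.7 ± 2.10 to 15.0 ± 1.02 CPM (-1.16, SE 0.115). *LRRC8D* went the other way, from 37.9 ± 8.13 to 81.7 ± 5.16 CPM (1.11, SE 0.155).

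The 12 transcription factors reported at connexin promoters were all measured, and 10 passed (83.3%, against 67.6% of all genes), 5 upward (*SP1*, *SP3*, *JUNB*, *FOSL2*, *TFAP2A*) and 5 downward (*JUN*, *FOSB*, *FOSL1*, *TBX2*, *KLF4*), with a median of 0.05. With library size scaling the split was 3 upward and 5 downward and the median -0.12. The AP-1 letters stand in the *GJA1* window searched above. Of the AP-1 subunits, *FOSL1* stood at 73.8, 157.5 and 153.3 CPM in LV-NC and at 29.03, 34.2 and 36.6 CPM in LV-*ATF7* (-1.95, SE 0.276). *TBX2*, a repressor reported at the *GJA1* promoter, had 37, 37 and 31 counts against 8, 8 and 7 (-2.19, SE 0.273). *KLF4* was at 212.9, 107.7 and 112.4 against 67.3, 65.8 and 67.0 CPM (-1.11, SE 0.2495), and at -0.74 without LV-NC replicate 1. These 3 genes were named because their changes were the largest among the list's called genes. Their groups did not overlap, which held for 72.7% of all genes.

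**Figure D3:**
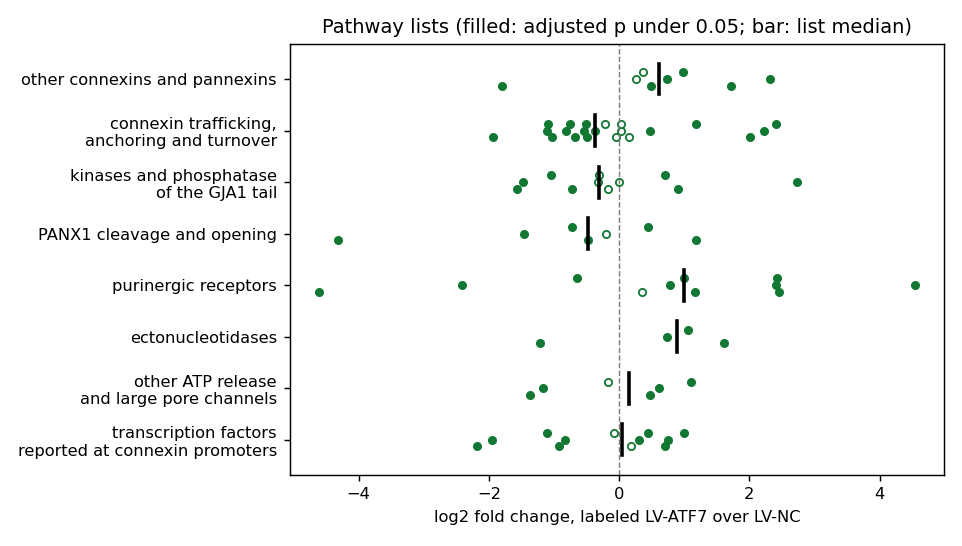
Log2 fold change of libraries labeled LV-*ATF7* over LV-NC (horizontal axis) for the measured genes of 8 lists, 1 point per gene, offset vertically for legibility. Filled points passed adjusted p under 0.05 (edgeR), the bar is the list median (from -0.47 for pannexin 1 cleavage and opening to 0.99 for purinergic receptors), and the dashed line is the median of all genes tested. Each list has points on both sides of 0.

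The genes most like each member over the 6 libraries were taken as those with the smallest root-mean-square difference of centered log2 CPM, among 11175 genes with a mean count of at least 50. For *GJA1* these were *RNF43* (0.152), *CATSPER2* (0.163) and *USP13* (0.189). Like *GJA1*, they were higher in LV-*ATF7* replicate 2 than in replicate 3. They were chosen over the same libraries, so this is no separate finding. For *PANX1* the closest genes were *PRKAB1* (0.0239), *EXT1* (0.0349) and *CCNDBP1* (0.0380). The closest genes to *PANX1* differed from it less than those of *GJA1* did, and the counting error of *GJA1* was also larger, as given above. With 6 libraries in 2 groups this likeness is a description.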

How the data were processed

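Poly(A) mRNA from 6 HaCaT samples, grouped by their labels, was sequenced by the authors. The deposited table holds whole read counts for 12499 genes, and these were used for all tests. The authors also deposited FPKM values, which entered only an alternative for connexin shares. The genome build in the submitters' processing notes is GRCh38, and the aligner, counting program and strandedness are not given in the sources used here. The authors' fold changes, log2 fold changes and p-values in the same table were not used. No count or FPKM column was left unmatched.

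After TMM scaling, the groups were compared by the quasi-likelihood test of edgeR 4.0.16 in R 4.3.3, with no covariate. The filter filterByExpr kept 12462 genes and dropped 37, and p-values were adjusted by Benjamini-Hochberg over all kept genes, with calls made under 0.05. The lowest summed count of any gene in the table was 51. Totals of 16686472 to 20562768 counts leave a counting error that is small for *PANX1* and sizable for *GJA1*. CPM uses TMM-scaled library sizes. Levels between genes were divided by exon length counted once (GENCODE release 29). Ratios and shares were compared by exact two-sided permutation over libraries. The edgeR fit was tried on simulated counts in which 200 of 12445 genes were changed. Of these 200, 134 were called, and 4.96% of the calls were unchanged genes. In the data 67.6% of genes were called, so the simulation does not cover a change this broad. Alternatives were DESeq2 1.42.0, limma 3.58.1 (voom with sample quality weights), library size and upper quartile scaling, no filter or at least 10 counts in every library, a replicate block and each library left out.

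Members and lists were chosen with earlier results of these data known, and so were the promoter motifs. Named genes were the members, every other measured connexin or pannexin, *ATF7*, the called genes with the 3 largest absolute log2 fold changes of each list, and the 3 genes most like each member. Some genes that this rule names are not reported here. Alternatives for genes other than the members were added after seeing the data.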

Additional observations from a re-analysis of the deposited data

How the results depend on the processing

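*GJA1* and *PANX1* kept direction and call in all 13 alternatives, with adjusted p from 1.51e-06 to 0.0264 and from 8.48e-18 to 9.78e-04, and no direction among the 10 connexins and pannexins changed. The number of genes called, 8429, ran from 7290 to 10391, and from 7290 to 10011 with 1 library left out, the latter without LV-NC replicate 1. Library size scaling shifted the median change over the whole table by -0.16 (log2) and the share of calls upward from 51.3% to 42.4%. With the replicate block, 8210 genes were called, *GJA1* was at 1.097 (adjusted p = 0.0135) and *PANX1* at -0.87 (adjusted p = 4.13e-04). Same-numbered libraries had correlations of deviations of 0.0583, -0.0209 and 0.0649. These values show no pairing by number but cannot exclude it, because LV-NC replicate 1 stood apart within its group. The log2 ratio of *PANX1* to *GJA1* ran from -2.18 to -1.75 with 1 library left out, and under the block its exact sign-flip p was 0.25, the smallest possible. The 6 called genes among the other connexins and pannexins became 3 without LV-NC replicate 3 or LV-*ATF7* replicate 3 and ranged from 3 to 6 over libraries left out. The 4 called ectonucleotidases ranged from 2 to 4 (2 where replicate 2 of LV-NC or replicate 1 or 2 of LV-*ATF7* was left out). The 5 called ATP release and large pore channels became 3 with library size scaling and ranged from 3 to 5 (3 without LV-NC replicate 2 or LV-NC replicate 3). The cause was not tested. No called gene of the lists changed direction with DESeq2, library size or upper quartile scaling. Of 359 values for the 28 other named genes, 17 lost the call and none reversed. The planned results for *GJB2* were not run, and *GJD3*, with under 10 counts in 2 libraries, has no value under the stricter filter.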
